A study of Mus musculus with 4 samples.

Results

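The nuclear receptors described here are 43 mouse genes of the nuclear receptor superfamily, without the Nr4a group. Their probe sets were taken where the platform annotation gave 1 gene symbol and that symbol was on the list. This gave 105 probe sets of 41 genes, out of 34945 probe sets with 1 symbol on the array, and Nr1h2 and Nr2e3 were not analysed here. Total RNA came from immortalized brown preadipocytes, the precursors of brown fat cells, of a mixed C57/BL6-129 strain and carrying floxed G9a alleles (G9af/f) in both groups. The Cre group had received Cre recombinase and is labelled G9a knock out, and the vector group is labelled wild type although it carries the same floxed alleles. Each group had 2 arrays, numbered 1 and 2. How Cre was delivered, and whether a number stands for a separate culture or animal, is not given in the sources used here, so p-values measure only the spread between these arrays. The title of the study names repression of PPARγ by G9a, a methyltransferase of histone H3 lysine 9, and the question asked here is how the receptors differed when G9a was lost.

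Nuclear receptors are transcription factors whose activity is set in many cases by a small lipophilic ligand, such as a steroid, a retinoid, thyroid hormone or a fatty acid. Many bind DNA as pairs with a retinoid X receptor (RXR), at repeats of the half-site AGGTCA, and exchange corepressors for coactivators when ligand binds. In fat cell precursors PPARγ drives differentiation, glucocorticoid and retinoid receptors modify it, and the REV-ERB receptors belong to the circadian clock.

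Each value is a signal intensity on a linear scale, scaled by the authors to the same trimmed mean on every array. Array medians were 78 and 52.5 signal units in Cre 1 and Cre 2, against 67.2 and 50.6 in vector 1 and vector 2. Ehmt2, which encodes G9a, read 953 and 912 in the Cre arrays, against 2682 and 2688 in the vector arrays. Its partner Ehmt1 differed by -0.33 ± 0.22. Which exons Cre removes is not stated in the labels, and a probe set lying elsewhere in the transcript cannot check the deletion. The numbers differed in Xist, the RNA of the inactive X chromosome, which read 9810 in Cre 1 and 58 in Cre 2, against 11049 in vector 1 and 41.8 in vector 2. The Y-linked Eif2s3y read 228 and 1265 in the Cre arrays, against 141 and 1127 in the vector arrays. All 7 measured preadipocyte and mesenchymal markers were at or above the array median in both vector arrays, among them Pdgfrb, Dlk1 and Ebf2. Of the 7 markers of mature brown fat cells Pparg was the only one at that level, while Ucp1, Cidea and Adipoq lay below it. None of the 4 hepatocyte and 5 endothelial markers reached it in both vector arrays. The endothelial markers summed to 325 and 155.5 in the Cre arrays, against 138 and 79.8 in the vector arrays, and Kdr, which had 162 and 61.6 in the Cre arrays against 75.1 and 7.6 in the vector arrays, made up most of the difference in number 2. Of 8 macrophage and leukocyte markers 3 did (Cd14, Cd68 and Csf1r), with Ptprc and Itgam near 0, and the list summed to 1087 and 772.5 in the Cre arrays, against 868.5 and 805 in the vector arrays. The preadipocyte and mesenchymal markers summed to 16165 and 21529 in the Cre arrays, against 19976 and 21549 in the vector arrays. Within both numbers Cd34, Cd44, Dlk1 and Pdgfra were lower in Cre and Pdgfrb was higher, while Ebf2 and Thy1 went opposite ways. Dlk1 read 1690 and 4882 in the Cre arrays, against 5421 and 5238 in the vector arrays. The summed signal of the 6 muscle markers was 6384 and 8214 in the Cre arrays, against 3208 and 1569 in the vector arrays, most of it Tnnt2. The part of these markers in the values below was not tested. In RNA from a whole culture, fewer cells of a type and less RNA per cell cannot be told apart.

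A receptor was counted as expressed in vector cells when its brightest probe set was at or above the array median on both vector arrays, since the file holds no detection calls. By this rule 19 of the 41 measured receptors (46.3%) were expressed, against 57.9% of all 18193 genes. They covered Pparg and Ppard of the PPARs, Rxra and Rxrb of the RXRs, Rara and Rarg of the retinoic acid receptors, and Thra of the thyroid hormone receptors. Vdr, the vitamin D receptor, and Nr3c1, the glucocorticoid receptor, were the only ones of their groups. Esrra and Esrrb, the clock receptors Nr1d1 and Nr1d2, all 3 COUP transcription factor genes (Nr2f1, Nr2f2 and Nr2f6), both testicular receptors (Nr2c1 and Nr2c2) and Nr6a1 completed the set. In the Cre arrays 21 receptors (51.2%) reached the array median on both arrays, against 58.7% of all genes. These were the same 19 with Rarb and Nr1h3 in addition.

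The 22 receptors that did not meet the rule had signals of 1.3 to 121 (median 31.05) in Cre 1 and 1.2 to 94.7 (median 23.6) in Cre 2, against 2.8 to 89.6 (median 28.2) in vector 1 and 2.2 to 53.2 (median 23.3) in vector 2. They included receptors known from liver and gut, namely Hnf4a, Hnf4g, Nr1h4, Nr1i2, Nr1i3, Nr5a2 and Nr0b2. The sex steroid receptors Esr1, Esr2 and Pgr and the mineralocorticoid receptor Nr3c2 were also among them, as were Ppara, the PPAR of fatty acid oxidation, Rxrg and Thrb. Closest to the threshold, Esrrb lay just above it with 77.4 and 72.3 in the vector arrays. Just below it were Nr1h3 with 80.3 and 44.4 and Rorb with 58.7 and 53.2. At a signal of at least 100 in both vector arrays, 18 receptors would be counted, all but Esrrb, and at the 75th percentile 12 would.

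**Figure D1:**
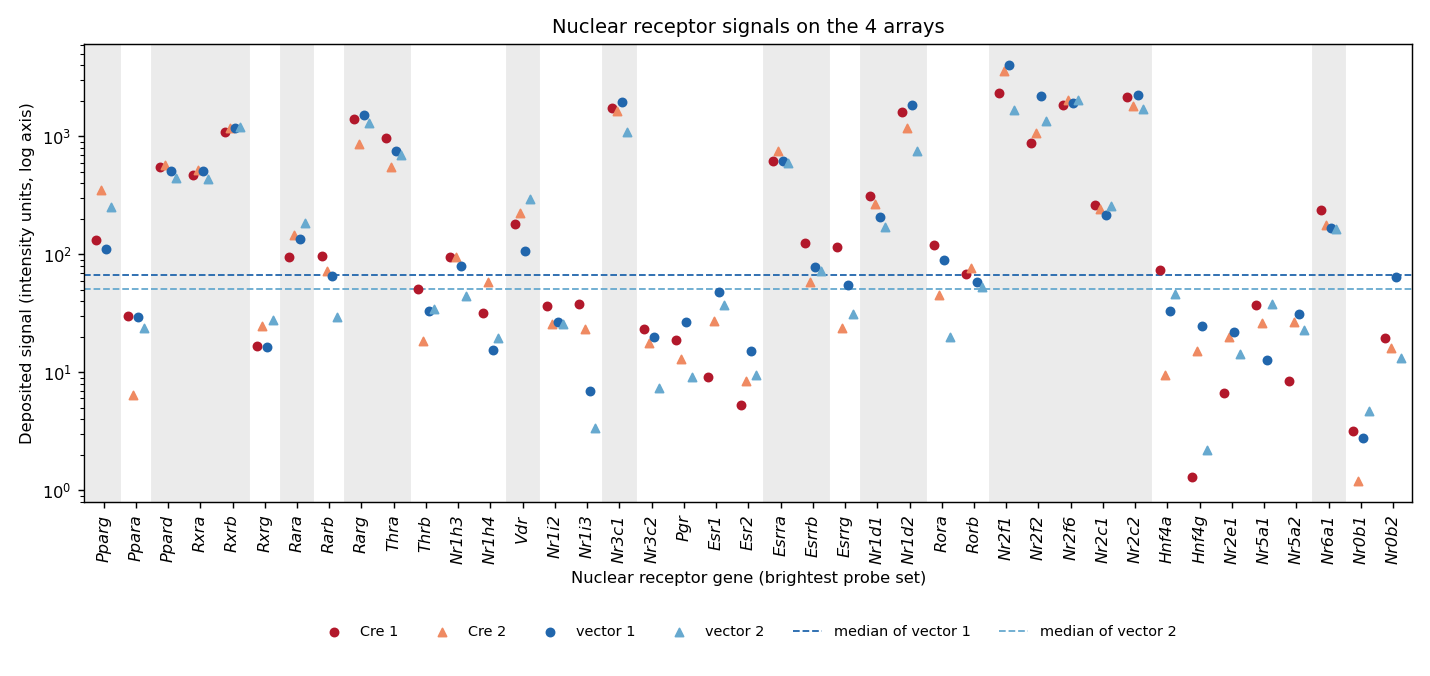
Deposited signal of the 41 measured nuclear receptor genes on a log axis, with 1 point for each array (Cre 1, Cre 2, vector 1 and vector 2) and dashed lines at the medians of the 2 vector arrays. The 19 receptors on a grey ground reached both medians in vector cells, and the others scatter between about the median and the lowest signals.

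For comparisons between groups, signals were quantile normalized and taken as log2(signal + 16), and differences are Cre minus vector on that scale. Of the 41 receptors, 23 had a brightest probe set whose mean over all arrays was at or above the 50th percentile and were tested. They were the 19 above with Rarb, Nr1h3, Rora and Rorb. The mean signal of Rarb, Rora and Rorb reached the filter's level in the Cre group only, so these 3 passed through the group where they were higher. The test was limma across all 22519 probe sets that passed, with Benjamini-Hochberg adjustment over all of them, without the replicate number as a block. Standard errors (SE) are from that model unless the block is named. With 2 arrays in each group the smallest two-sided p of an exact permutation test is 0.333, so none was used.

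None of the 23 tested receptors passed in either direction. Without the block, limma called 0 receptors and 0 of all 11106 tested genes at an adjusted p under 0.05, which is 0% in each direction. At an unadjusted p under 0.05, 0 receptors were higher (3.93% of all genes) and 1 was lower (1.27% of all genes), which was Nr2f2. With the replicate number as a block, limma called 0 receptors, against 3.13% of all genes higher and 0.918% lower. At an unadjusted p under 0.05 that model had 1 receptor higher (11% of all genes), Nr1d1, and 1 lower (7.49% of all genes), Nr2f2. The difference was positive for 18 of the 23 receptors and negative for 5. These were 14 and 9 when arrays were median centred instead, where the median of all genes was -0.093. Rarb, Rora and Rorb, which passed the filter through the Cre group only, are among the positive ones and in the medians that follow. The median difference of the 23 receptors was 0.13, against 0.0075 for all genes tested, and the median absolute difference was 0.21 against 0.18. Within number 1 the receptors' median was 0.031, against 0.028 for all genes, and within number 2 it was 0.22, against -0.0059.

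Direction within the 2 replicate numbers agreed for 11 of the 23 receptors. Pparg, Ppard, Rarb, Nr1h3, Esrra, Nr1d1, Rora and Nr6a1 were higher in Cre in both numbers, 8 receptors or 34.8%, against 32.9% of all genes. Rara, Rarg and Nr2f2 were lower in both, 3 receptors or 13%, against 30.2% of all genes. With a change of at least 1.5-fold asked of each number, 0 tested receptors remained in either direction, against 4.03% of all genes higher and 1.26% lower. Both Cre arrays lay above both vector arrays for 5 receptors (Nr1d1, Nr1h3, Nr6a1, Ppard and Rarb), or 21.7% against 17.6% of all genes. Both lay below for Nr2f2 alone, or 4.35% against 13.5%. Leaving out 1 array turned the sign of the mean difference for 16 of the 23 receptors, among them Pparg, Vdr and Nr2f1. These fits had no block, so leaving out 1 array unbalances the numbers and lets the difference between numbers into the mean. A turned sign there is thus no measure of how the genotype difference held within the numbers, and the share for all genes was not computed. Rarb and Rora, counted above among those higher in Cre, passed the filter through the Cre group only.

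**Figure D2:**
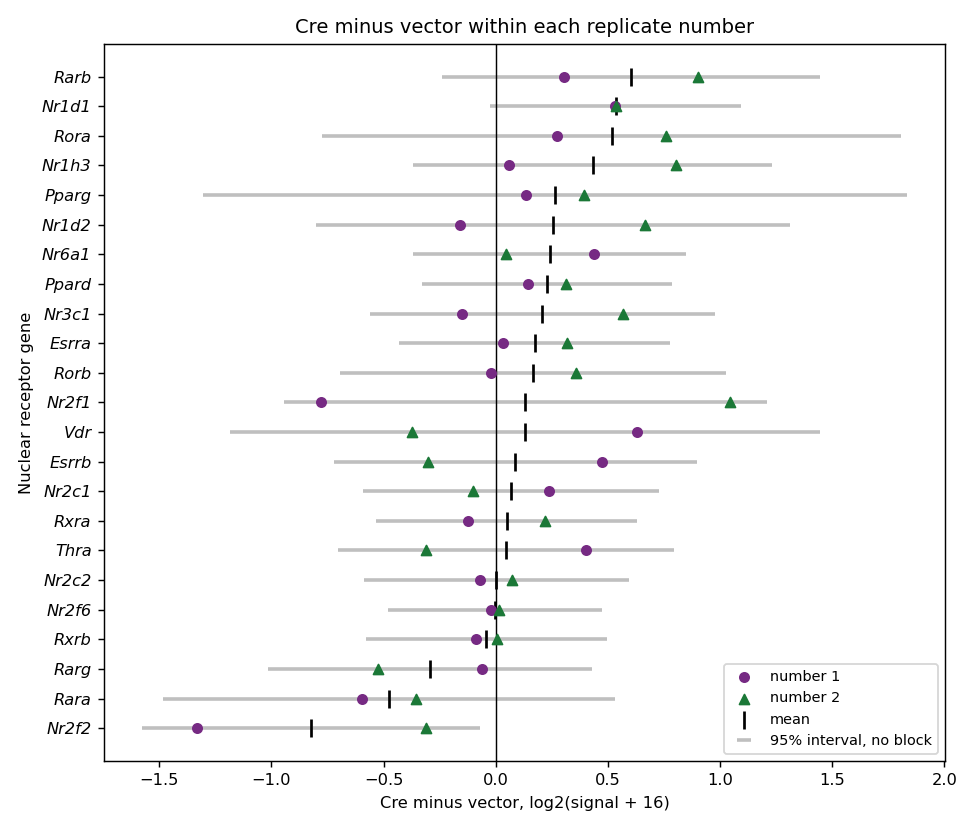
Cre minus vector on the log2(signal + 16) scale for the 23 tested receptors, with circles for number 1, triangles for number 2, a bar for their mean and a grey line for the 95% interval of the model without the block. Every interval but that of Nr2f2 reaches across 0, and the points of Nr1d1 lie on each other.

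Pparg, the receptor that drives fat cell differentiation, read 132 and 349 signal units in Cre 1 and Cre 2, against 111 and 252 in vector 1 and vector 2. It was the higher of the pair in Cre within each number, but Cre 1 lay below vector 2. The differences were 0.13 in number 1 and 0.39 in number 2, a mean of 0.26 with a block SE of 0.22 (95% interval -0.22 to 0.74; limma adjusted p = 0.607). The 95% interval without the block was -1.31 to 1.83. A single probe set measured the gene, so its transcription starts were not told apart. Ppard, a widely expressed PPAR, read 554 and 567 in the Cre arrays, against 509 and 446 in the vector arrays. Its difference was 0.23 ± 0.23 (SE, n = 2 against 2), with 0.14 and 0.31 within the numbers, and the groups did not overlap. Ppara did not pass the level filter, with 30.2 and 6.4 in the Cre arrays and 29.6 and 23.8 in the vector arrays.

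The 250 bases upstream of the 3 Pparg starts in RefSeq (GRCm38.p6) are shown because the study's title is about this gene and because RXR pairs bind the half-site AGGTCA. Capitals mark that half-site on either strand, and each line runs 5′ to 3′ toward the start.
Pparg start 1 (chr6:115360894-115361143, plus strand): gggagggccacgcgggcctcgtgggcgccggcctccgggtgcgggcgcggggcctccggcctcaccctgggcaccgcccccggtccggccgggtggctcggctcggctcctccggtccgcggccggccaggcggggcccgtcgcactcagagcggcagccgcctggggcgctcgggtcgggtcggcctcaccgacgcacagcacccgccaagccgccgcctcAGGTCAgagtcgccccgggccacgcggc
Pparg start 2 (chr6:115362099-115362348, plus strand): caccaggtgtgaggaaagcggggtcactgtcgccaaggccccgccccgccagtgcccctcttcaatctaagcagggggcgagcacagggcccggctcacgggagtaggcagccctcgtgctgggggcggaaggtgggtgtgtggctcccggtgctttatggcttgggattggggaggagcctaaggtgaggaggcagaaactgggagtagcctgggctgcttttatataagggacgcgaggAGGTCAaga
Pparg start 3 (chr6:115421816-115422065, plus strand): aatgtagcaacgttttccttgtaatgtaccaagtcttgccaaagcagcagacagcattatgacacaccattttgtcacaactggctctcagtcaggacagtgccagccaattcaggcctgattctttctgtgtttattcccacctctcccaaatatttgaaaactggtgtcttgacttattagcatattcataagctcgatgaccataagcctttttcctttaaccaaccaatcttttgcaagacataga
Start 1 has 38 CpG dinucleotides in this window, start 2 has 12 and start 3 has 2, against a median of 6 over all 32851 promoter windows. Starts 1 and 2 hold 1 half-site each and start 3 holds none. The half-site occurred in 14% of all windows and in 11 of 58 receptor windows (19%).

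The RXR genes encode the shared partners of these receptors. Rxra read 467 and 519 in the Cre arrays, against 509.7 and 437 in the vector arrays. Its difference was 0.048 ± 0.24, with -0.12 and 0.22 in numbers 1 and 2, so the groups overlapped. A second probe set of Rxra was higher in Cre in both numbers, by 0.28 and 0.40 (mean 0.34 ± 0.33). Rxrb, at 1080 and 1169.9 in Cre against 1182 and 1205 in vector, differed by -0.041 ± 0.22. The 95% interval for Rxrb with the block was -0.38 to 0.30.

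Of the retinoic acid receptors, which respond to all-trans retinoic acid, Rara read 94.7 and 145 in Cre, against 136 and 185 in vector. It was lower in both numbers, by differences of -0.60 and -0.36, while Cre 2 lay above vector 1. The mean difference was -0.48 with a block SE of 0.24 (limma adjusted p = 0.365). Rarg read 1415 and 864 in Cre against 1518 and 1297 in vector, with differences of -0.06 and -0.52. Its second probe set pointed the same way, with a mean of -0.42 against -0.29 for the first, and Cre 1 lay above vector 2. Rarb, itself a classical retinoic acid target, read 96.5 and 71.7 in Cre against 65.6 and 29.7 in vector. Its groups did not overlap, and it had the largest positive mean difference among the 23 tested receptors, 0.60 ± 0.35. Within the numbers it was 0.31 and 0.90, with a limma adjusted p of 0.397 with the block. Rarb passed the level filter through the Cre group only, so the filter favoured a positive difference.

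Thra, the thyroid hormone receptor α gene, read 967 and 554 in Cre, against 750.1 and 701 in vector. The numbers went opposite ways, with differences of 0.40 and -0.31. Its 2 other probe sets that passed the filter had mean differences of -0.41 and -0.054, against 0.045 for the brightest, so the probe sets did not share a sign. Vdr read 180.3 and 225 in Cre against 106 and 293 in vector, with differences of 0.63 in number 1 and -0.37 in number 2, and its second probe set had a mean of -0.39. Nr1h3, which encodes the oxysterol receptor LXRα, read 95.5 and 94.7 in Cre, against 80.3 and 44.4 in vector. Its difference was 0.43 ± 0.33, most of it in number 2 (0.06 and 0.80). Nr1i3, the xenobiotic receptor CAR of liver, was the only measured receptor at least 1.5-fold higher in both numbers, by 0.97 and 1.12. Its signals of 37.8 and 23.3 in Cre and 6.9 and 3.4 in vector were below the array median on every array, so it was not tested.

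Nr3c1, the glucocorticoid receptor gene, read 1741 and 1635 in Cre against 1960 and 1096 in vector. The vector arrays enclosed the Cre arrays, and the differences were -0.15 and 0.57. Its other probe sets that passed the filter disagreed, with means of -0.37 and 0.49. Esrra, an orphan receptor that acts on mitochondrial genes together with PGC-1 coactivators, read 616 and 749.9 in Cre and 615 and 594 in vector. Its difference was 0.17 ± 0.25, with 0.031 and 0.32 within the numbers, and the second probe set gave 0.45. Esrrb, measured by a probe set of the kind that can match several transcripts, read 124 and 57.8 in Cre and 77.4 and 72.3 in vector. Its differences were 0.47 and -0.30. The other probe sets of Esrrb read 72 and 26.5, and 26.3 and 22.1, in the vector arrays and did not meet the rule for expression.

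Nr1d1, which encodes the clock repressor REV-ERBα, was the one of the 23 tested receptors whose numbers agreed most closely. It read 313 and 269 in Cre, against 206 and 171 in vector, and both Cre arrays lay above both vector arrays. The difference was 0.53 within number 1 and 0.54 within number 2, a 1.45-fold higher mean (0.53 ± 0.23 without the block and ± 0.20 with it). It did not pass, with a limma adjusted p of 0.999 without the block and 0.22 with it. Nr1d2, its paralog REV-ERBβ, read 1608 and 1186 in Cre against 1829.7 and 747 in vector, with differences of -0.16 and 0.67. Rora, a receptor that activates through the same elements, read 121 and 44.9 in Cre against 89.6 and 20 in vector. It was higher in Cre in both numbers (0.27 and 0.76), but 8 of its 9 probe sets were below the level filter. Rorb differed by 0.17 ± 0.35, with signals of 53.2 to 76.2 on the 4 arrays.

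The COUP transcription factors, orphan receptors that repress many genes and act in mesenchymal and vascular development, included, among the 23 tested, the receptor with the most negative difference and one that went opposite ways in the 2 numbers. Nr2f2 (COUP-TFII) read 881 and 1062 in Cre, against 2205 and 1361 in vector. Both Cre arrays lay below both vector arrays, with vector 1 far above the other 3. The difference was -1.33 in number 1 and -0.31 in number 2. The mean of -0.82 ± 0.31 (1.77-fold lower) had a limma adjusted p of 0.999 without the block and 0.0852 with it (block SE 0.22). All 5 of its probe sets that passed the filter had a negative mean, from -0.88 to -0.21, and 4 of them were lower in both numbers. Probe sets of 1 gene measure the same RNA and are not replicates.

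Nr2f1 (COUP-TFI), with 1 probe set, read 2354 and 3556 in Cre, against 4047 and 1678 in vector. It was lower in Cre by -0.78 in number 1 and higher by 1.04 in number 2. Among the 23 receptors it was the only one at least 1.5-fold apart in opposite directions, 4.35% of them, against 0.396% of all genes. With 1 array per group and number, this difference between the numbers has no test. Nr2f6 read 1860.2 and 2054 in Cre and 1921 and 2046 in vector, with a difference of -0.0038 and a 95% interval of -0.31 to 0.30 in the blocked model.

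The promoter windows of Nr2f2 and Nr1d1, the tested receptors with the most negative difference and with the closest numbers, are shown for comparison with those of Pparg. Neither holds the half-site AGGTCA, so no base is in capitals.
Nr2f2 (chr7:70366747-70366996, minus strand): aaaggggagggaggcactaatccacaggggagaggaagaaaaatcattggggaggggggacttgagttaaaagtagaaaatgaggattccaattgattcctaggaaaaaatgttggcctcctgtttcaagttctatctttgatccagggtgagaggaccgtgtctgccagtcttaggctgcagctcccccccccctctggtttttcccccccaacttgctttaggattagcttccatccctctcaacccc
Nr1d1 (chr11:98775378-98775627, minus strand): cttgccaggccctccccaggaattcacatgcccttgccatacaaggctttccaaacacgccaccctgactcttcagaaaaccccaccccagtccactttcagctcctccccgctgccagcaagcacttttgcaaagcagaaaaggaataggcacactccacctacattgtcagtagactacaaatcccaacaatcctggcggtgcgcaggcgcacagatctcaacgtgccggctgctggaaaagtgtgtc
The Nr2f2 window has 1 CpG dinucleotide and the Nr1d1 window has 7. Taking the richest window of each gene, the median CpG count was 18 over 17 receptors expressed in vector cells (range 1 to 42) and 9.5 over 20 not expressed (range 2 to 30), against 6 over 27025 genes. At least 1 half-site lay in a window of 5 of the 17 expressed receptors (29.4%) and 5 of the 20 others (25%), against 15.8% of all genes. These are letter matches, and 37 of the 41 measured receptors had a window in the table.

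Among the testicular orphan receptors, Nr2c1 read 264 and 242.5 in Cre against 214 and 255 in vector, a difference of 0.067 ± 0.27. Nr2c2 read 2139 and 1806 in Cre against 2264.5 and 1716 in vector, a difference of 0.0031 ± 0.24. Its 2 other probe sets that passed the filter had means of -0.36 and -0.24. Nr6a1, the germ cell nuclear factor gene, read 239.8 and 177 in Cre against 167.5 and 165 in vector. It was higher in Cre by 0.44 in number 1 and by 0.045 in number 2.

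The difference between the replicate numbers exceeded that between the genotypes for most receptors. The difference of number 2 from number 1, in a model that also held the genotype, was larger in size than the genotype difference for 17 of the 23 receptors (73.9%), against 61.6% of all genes. In that model 3 receptors were higher in number 2 at a limma adjusted p under 0.05 (13%, against 8.25% of all genes) and 1 was lower (4.35%, against 8.09%). Pparg rose by 1.46 ± 0.22 in number 2 (2.75-fold), with 349 and 252 in Cre 2 and vector 2, against 132 and 111 in Cre 1 and vector 1 (limma adjusted p = 0.00294). Vdr rose by 1.08 ± 0.26 (limma adjusted p = 0.0242), with 225 and 293 in Cre 2 and vector 2, against 180.3 and 106 in Cre 1 and vector 1. Rara rose by 0.79 ± 0.24 (limma adjusted p = 0.0491), with 145 and 185 in Cre 2 and vector 2, against 94.7 and 136 in Cre 1 and vector 1. Among the settings with at least 3 calls, Rara lost its call on the values as deposited, with a pseudocount of 64, with the mean of all probe sets and with robust eBayes. Nr1d2 lost its call with median centring, where Nr2f6 was called higher. Rora was called lower in number 2 with median centring and on the values as deposited. Nr1d2 fell, by -0.83 ± 0.20 (limma adjusted p = 0.0223), with 1186 and 747 in Cre 2 and vector 2, against 1608 and 1829.7 in Cre 1 and vector 1. The arrays of the 2 numbers differed in Xist and in the Y-linked Eif2s3y, as given above. Any part of these sex-linked differences in the 4 results cannot be told apart from that of the numbers and was not tested. The labels do not say whether a number is a single source of cells. The p-values between numbers therefore measure only the spread between these arrays, not that between sources. Without the intensity trend limma called 0 of the 23 receptors between numbers, with 5 at an unadjusted p under 0.05.

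**Figure D3:**
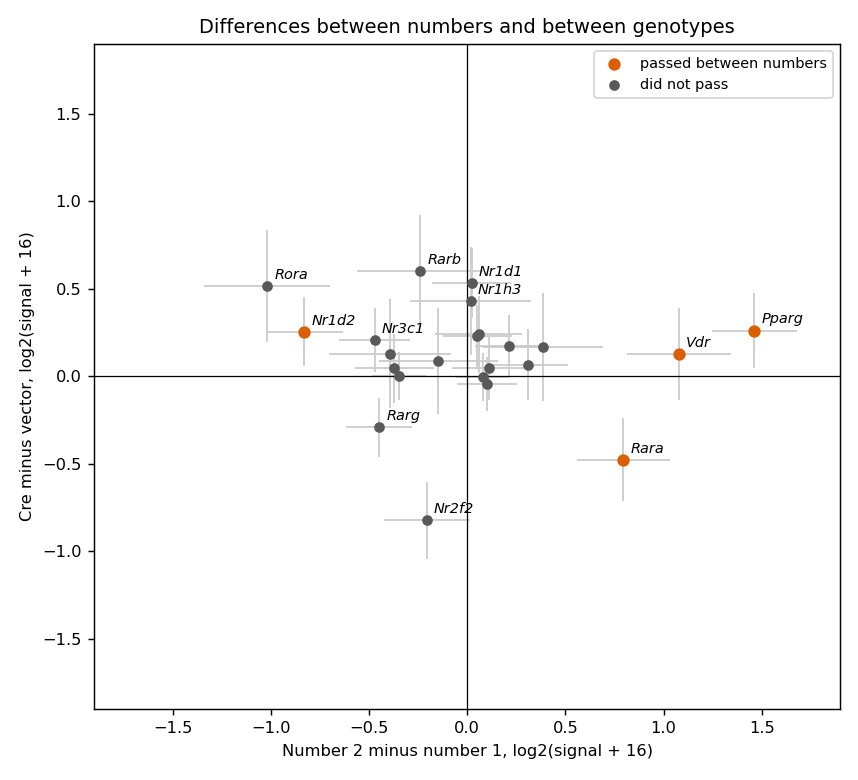
Difference of number 2 from number 1 (horizontal axis) and of Cre from vector (vertical axis) for the 23 tested receptors, both on the log2(signal + 16) scale, with bars of 1 SE from the model with both terms. Pparg, Vdr and Rara lie to the right and Nr1d2 to the left among the 4 that passed between numbers, and no receptor passed between Cre and vector.

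Cofactors carry the receptors' signal to chromatin. Of 22 tested coactivator genes and 12 tested corepressor genes, 0 passed in either direction in either limma model, against the 3.13% of genes higher and 0.918% lower with the block. The coactivators had a median difference of -0.0071, with 11 positive and 11 negative, and the corepressors -0.12, with 3 positive and 9 negative. Prdm16, a coactivator in brown fat cells, read 161 and 134 in Cre against 60.5 and 72.7 in vector, a difference of 0.89 ± 0.31. Kat2b, an acetyltransferase gene, came nearest to passing with the block (0.68, block SE 0.17; limma adjusted p = 0.0686), with 1590.2 and 1089 in Cre against 1196 and 570 in vector. Ncoa7 differed by 0.40 ± 0.23. Ppargc1b, the PGC-1β coactivator gene, read 38.9 and 79.8 in Cre against 101 and 107.5 in vector, a difference of -0.82 ± 0.47. Its mean signal reached the filter's level in the vector group only. Cited2, counted on the corepressor list though not an established receptor corepressor, read 4046 and 3425 in Cre against 5131 and 4674 in vector. Its difference was -0.40 ± 0.19, among the 9 negative ones of that list, and its groups did not overlap. Tbl1xr1 differed by 0.38 ± 0.24, Tob2 by -0.35 ± 0.27 and Sin3a by -0.22 ± 0.22.

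Target genes of the receptors moved in both directions in the glucocorticoid, retinoid and PPAR lists. Without the block limma called 0 genes in any of the 11 lists, so the calls that follow are those of the model with the block. The lists were chosen with earlier results of these data known, so a share above that of all genes is only a description. Pdk4 and Angptl4 are counted in both the glucocorticoid and the PPAR list. Of 13 tested glucocorticoid receptor targets 2 rose and 5 fell, against 3.13% and 0.918% of all genes. Of the 13 differences 6 were positive and 7 negative, and their median was -0.44, against 0.0075 for all genes. Within the numbers the list's median was smaller in size, -0.18 in number 1 and -0.33 in number 2. Sgk1, a kinase gene induced by glucocorticoids, fell to 2513 and 3781 in Cre, against 6289 and 5677 in vector (-0.96, block SE 0.17; limma adjusted p = 0.013). Errfi1, which encodes an inhibitor of the EGF receptor, fell by -0.83 (limma adjusted p = 0.00793). The metallothionein genes Mt2 and Mt1, which bind metals and respond also to zinc, fell by -1.41 and -0.79, and the lipase inhibitor gene Angptl4 fell by -0.92. Dusp1, a phosphatase gene, rose to 2939 and 2149 in Cre against 1790.2 and 1321 in vector (0.73; limma adjusted p = 0.0187), and Pdk4 rose by 0.995. Fkbp5, a direct target used to report receptor activity, differed by 0.067 ± 0.23, and Tsc22d3 by 0.25 ± 0.29.

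Hsd11b1, the enzyme that regenerates active glucocorticoid inside cells, rose to 127 and 104 in Cre, against 21.8 and 10.8 in vector (1.95, block SE 0.34; limma adjusted p = 0.0133). It was the single gene to pass of 8 tested steroid-converting enzymes, whose median was 0.0028, but its vector mean lay below the filter's level, so it entered the test through the Cre group. Of the 7 enzymes at that level in both groups 0 passed. Srd5a3 differed by 0.37 ± 0.22, Hsd17b11 by 0.49 ± 0.31 and Hsd17b10 by -0.23 ± 0.17. Among 8 tested retinoid genes 2 rose and 1 fell, against 3.13% and 0.918% of all genes, with a median of 0.39 and 6 positive and 2 negative differences. Aldh1a1, Cyp26b1 and Rarb reached the filter's level in the Cre group only, and of the other 5 genes 1 rose and 1 fell. Crabp1, which binds retinoic acid in the cytoplasm, fell to 3878.5 and 1883 in Cre, against 10833 and 6405 in vector (-1.61, block SE 0.11; limma adjusted p = 6.1e-05). Aldh1a1, which makes retinoic acid from retinal, rose to 65.9 and 219 in Cre against 2.4 and 39 in vector (1.93; limma adjusted p = 0.0122). Both vector signals and the Cre 1 signal were below the array medians. Tgm2, a transglutaminase gene induced by retinoic acid, rose by 1.20 (limma adjusted p = 0.00756). Crabp2 differed by -0.46 ± 0.25. Rarb, also on this list, is described above.

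Of 15 tested PPAR targets 2 rose and 1 fell, against 3.13% and 0.918% of all genes. Of their differences 10 were positive and 5 negative, and the median was 0.069, with 0.16 in number 1 and -0.073 in number 2. Fabp4, a fatty acid binding protein gene of fat cells, read 908 and 1119.7 in Cre against 186 and 112 in vector and rose by 2.65, with a limma adjusted p of 0.000198. Pdk4, the pyruvate dehydrogenase kinase gene, rose to 531 and 517 in Cre, against 265 and 238 in vector, with 0.999 and 0.99 within the numbers. Angptl4, a target of both receptors, fell to 92.3 and 339.5 in Cre, against 179 and 645 in vector, by a mean of -0.92. Lpl, Cpt1a, Acadm and Hadha, also PPAR targets, had differences of 0.27, -0.19, -0.18 and 0.021 and did not pass. The lipid droplet genes Plin4 and Plin2 differed by 0.79 ± 0.36 and 0.35 ± 0.17. Of 10 tested LXR targets 0 passed. Abcg1, a cholesterol exporter gene, came nearest with 179.9 and 107 in Cre against 73.2 and 33.6 in vector (1.16; limma adjusted p = 0.053), while Abca1 differed by -0.023. Apod differed by 2.28 (block SE 0.54; limma adjusted p = 0.055), with 3.75 in number 1 and 0.82 in number 2. It read 416 and 67 in Cre against 14.7 and 30 in vector, so Cre 1 lay far above the rest. Abcg1 and Apod were at the filter's level in the Cre group only. Fasn differed by -0.29 ± 0.16 and Pltp by -0.48 ± 0.34.

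**Figure D4:**
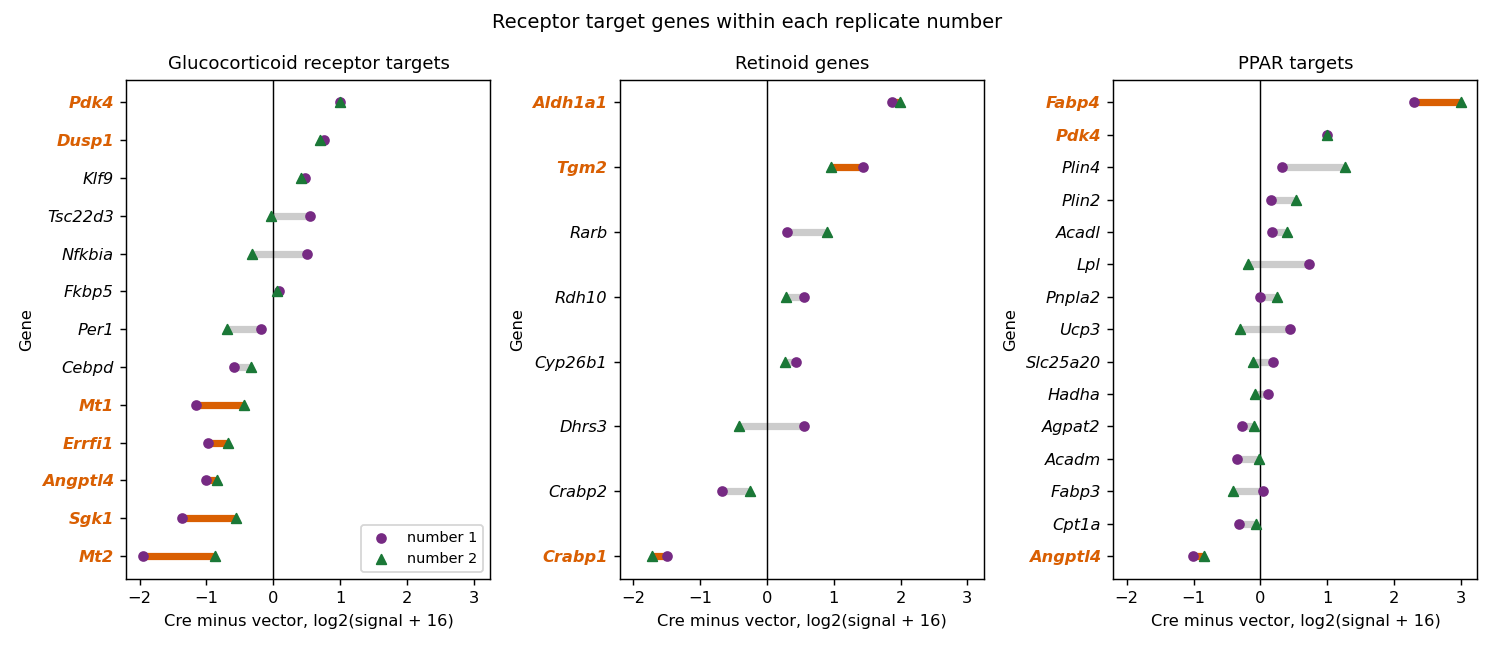
Cre minus vector on the log2(signal + 16) scale for the tested genes of 3 lists, with circles for number 1 and triangles for number 2. Genes that passed limma with the replicate block are named in orange: 2 rose and 5 fell among glucocorticoid receptor targets, 2 rose and 1 fell among retinoid genes, and 2 rose and 1 fell among PPAR targets. Of the retinoid genes that rose, Aldh1a1 reached the filter's level in the Cre group only.

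The other lists held few calls. Of the 11 tested clock genes tied to REV-ERB and ROR 0 passed, with a median of 0.15. Per1, a clock gene that glucocorticoids also induce, read 338 and 208 in Cre against 372.5 and 350.3 in vector, and Dbp, a clock output gene, read 787 and 354 in Cre against 594.5 and 171 in vector. Ciart differed by 0.39 ± 0.33 and Per3 by 0.44 ± 0.40. Of 17 tested oxidative genes that estrogen-related receptors act on 0 passed, with a median of -0.0018, and Nrf1, Uqcrc1, Cycs and Atp5b differed by -0.36, 0.13, 0.16 and 0.059. Of 4 thyroid hormone targets 0 passed. Dio2, the enzyme that activates thyroid hormone in brown fat, differed by 0.60 ± 0.41. Its mean signal reached the filter's level in the Cre group only. Klf9 differed by 0.44 ± 0.37, Me1 by 0.13 ± 0.21 and Bcl3 by -0.047 ± 0.78. Tnfrsf11b, the osteoprotegerin gene and the 1 tested gene of the vitamin D list, rose to 483 and 136.5 in Cre, against 184 and 29.3 in vector (1.52; limma adjusted p = 0.00669).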

How the data were processed

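Total RNA of 4 samples was hybridized to Affymetrix mouse arrays. The authors deposited 1 signal intensity per probe set and array, made with MAS5 per the submitters' processing notes, with its version and settings not stated. Each array's deposited intensities had a mean of 500 after 2% was trimmed at each end. Of 45101 probe sets 64 controls were left out. Of the other 45037, 34945 had 1 platform symbol, 932 several and 9160 none. Symbols were updated by gene ID (34741 matched) to RefSeq, GRCm38.p6, which also gave the promoter sequences.

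Array medians differed by 0.497 on the log2 scale, above the 0.2 limit set for it, so signals were quantile normalized. Values were log2(signal + 16), and 22519 probe sets at or above the 50th percentile of the mean were tested with lmFit and eBayes with an intensity trend (limma 3.58.1, R 4.3.3) at an adjusted p of 0.05. The brightest probe set stood for a gene, which gave 11106 tested genes. Named receptors are those expressed in vector cells or 1.5-fold apart in both numbers, with the other tested ones; named list genes are the 4 with the smallest p, and further ones were named after their values were seen. The members and lists were chosen with earlier results of these data known. The number of arrays limits the precision.

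Across probe sets, the deviations from the group mean of arrays with the same number correlated at 0.605, and Xist separated the numbers. The numbers were therefore treated as pairs, and the blocked model is given beside the main one. Alternatives were scaling, pseudocount, filter, choice of probe set, eBayes form, the block and leaving out each array.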

Additional observations from a re-analysis of the deposited data

Results flagged for a closer look

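Nr2f1 was set apart because the Cre and vector arrays differed in opposite directions in the 2 replicate numbers, by more than 1.5-fold in each. Its Cre minus vector difference on the log2(signal + 16) scale was -0.78 in number 1 and 1.04 in number 2. The difference between the numbers was not tested, since each number holds 1 array per group. Groups of 2 arrays are too small for a check of single outlying arrays.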

How the results depend on the processing

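The count of 0 receptors called between Cre and vector by limma was the same in all 15 alternatives run, with 0 to 2 at an unadjusted p under 0.05, and with the replicate block it was 0 as well. With 1 array left out, the count called was 0 to 0. Receptors expressed in vector cells numbered 12 at the 75th percentile in place of 19. Receptors 1.5-fold apart in the same direction in both numbers numbered 1 without the filter (Nr1i3), 2 at the smaller fold limit tried (Nr1d1 and Rara) and 11 by sign alone, in place of 0. Between numbers, limma called 1 receptor in place of 4 without the filter (Pparg), 1 with the 75th percentile filter (Nr1d2), 2 with probe sets whose ID lacks _s_, _x_ or _a_ (Vdr and Nr1d2), 0 without the trend and 0 without the genotype term, the last 2 with 5 each at an unadjusted p under 0.05. Leaving out 1 array could not be fitted there, since no residual degree of freedom remains. Pparg, Rara and Vdr lay below the 75th percentile filter and were not tested under it. Pparg and Rara have 1 probe set each, with _a_ in its ID, so they were absent where such probe sets were left out. Median centring turned Rxra (-0.050), Thra (-0.094), Nr2c1 (-0.0026) and Nr2c2 (-0.11) below 0. The deposited scaling turned Nr2c2 to -0.0044. The mean of all probe sets turned Thra to -0.14, Vdr to -0.13, Nr2c2 to -0.20 and Nr2f6 to 0.034. With 1 array left out, the ranges of the 16 receptors that turned sign were Pparg -0.53 to 1.06, Rxra -0.092 to 0.19, Rxrb -0.11 to 0.031, Rarg -0.63 to 0.048, Thra -0.32 to 0.41, Vdr -0.66 to 0.92, Nr3c1 -0.21 to 0.62, Esrra -0.0041 to 0.35. They were Esrrb -0.18 to 0.35, Nr1d2 -0.37 to 0.88, Nr2f1 -0.52 to 0.78, Nr2f6 -0.052 to 0.045, Nr2c1 -0.17 to 0.31, Nr2c2 -0.21 to 0.21, Rora -0.11 to 1.15 and Rorb -0.12 to 0.45 for the others. The cause was not tested, but leaving out 1 array unbalances the numbers. The other 7 tested receptors kept their sign in every alternative run, but their ranges with 1 array left out were Rara -0.93 to -0.019, Nr2f2 -1.18 to -0.46, Nr6a1 0.11 to 0.37, Rarb 0.33 to 0.87, Nr1h3 0.24 to 0.63, Ppard 0.16 to 0.297 and Nr1d1 0.52 to 0.55. With the block the calls in 5 of the 11 lists were gained, 4 of them when genes at the filter's level in 1 group only were left out, a choice made after seeing the data, and without vector 1 limma called 1 PPAR target. The signal of 12 tested receptors reached the 75th percentile filter, and the dimmer ones depend most on the pseudocount.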
